A study of Homo sapiens with 9 samples.

Results

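The globin genes code for the protein chains of haemoglobin. The 8 genes described here are *HBA1*, *HBA2*, *HBM*, *HBQ1* and *HBZ* of the alpha cluster and *HBB*, *HBD* and *HBE1* of the beta cluster, 8 of 57338 genes in the expression table. They were taken by symbol as a family, after their levels in the libraries labelled hPRM1 were known, so these levels are given as a description without a test.

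HEK293T, a line of human embryonic kidney origin that carries the SV40 large T antigen, was transfected with an empty vector, with human PRM1 fused to EGFP (hPRM1) or with human PRM2 fused to EGFP (hPRM2). Cells with high EGFP were sorted 3 days after transfection, total RNA was taken, and libraries were made with a QuantSeq 3′ mRNA kit, which reads the 3′ ends of transcripts. Each group held 3 libraries, for which no separate cultures are stated, and values are RPKM, reads scaled by the length of the gene and by the total reads of the library. By the labels each group is 1 cell line with a transfected plasmid, a model of transient expression.

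Haemoglobin of adult red cells joins alpha chains, from *HBA1* and *HBA2*, with beta chains from *HBB*. *HBZ* and *HBE1* serve as the alpha-like and beta-like chains of the embryo, *HBD* gives a minor adult beta-like chain, and *HBM* and *HBQ1* are alpha-like genes whose protein products are little known. In each cluster the embryonic gene lies upstream of the adult alpha or beta genes. Transcription of the globin genes in maturing red cells depends on distant enhancers and on the factors GATA1, TAL1 and KLF1.

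The libraries labelled hPRM1 differed from their label in several measured ways, stated here since each value below rests on them. *PRM1* was listed at 0 in all 9 libraries, whereas *PRM2* was at 36130 to 71224 RPKM in the hPRM2 libraries and at 0 elsewhere. Of 9 genes that mark HEK293T cells, 7 had a value of 0 in each of the 3 libraries labelled hPRM1 (*LIN28B*, *IGF2BP1*, *HMGA2*, *NEFM*, *NEFL*, *PAX2* and *TUBB2B*), and the summed level of the 9 was 0.260 to 1.03 RPKM there. The same sum was 295 to 355 RPKM with empty vector and 99.95 to 219 RPKM with hPRM2. The library names of the 3 samples labelled hPRM1 also carry numbers from a separate run of numbers, so that this and the labelled condition cannot be told apart. The reads on genes were estimated at 7920000 to 10770000 per library with empty vector, 4210000 to 5860000 with hPRM1 and 1270000 to 2650000 with hPRM2. The study gives the reads obtained, a different measure, with more for hPRM2 than for hPRM1, the reverse of this order.

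The alpha cluster lies on chromosome 16 on the forward strand (GRCh38, GENCODE 29), with *HBZ* at chr16:152687-154503, *HBM* at chr16:153892-166768, *HBA2* at chr16:172876-173710, *HBA1* at chr16:176680-177522 and *HBQ1* at chr16:180453-181181. The beta cluster lies on the reverse strand of chromosome 11, with *HBB* at chr11:5225464-5229395, *HBD* at chr11:5232678-5243657 and *HBE1* at chr11:5268345-5505652. All 8 are annotated as protein-coding. The exons of *HBZ* and *HBM* share 205 bases on the same strand, so reads in that stretch could be counted for either gene.

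The coding sequences of *HBA1* and *HBA2* were identical over all 429 bases, and the stretches after the stop codon, of 111 and 110 bases, were 82.7% identical with 19 mismatched bases. Reads that end within the coding part therefore cannot be assigned to *HBA1* or *HBA2*, whereas reads over mismatched bases after the stop codon can. *HBB* and *HBD* were 92.8% identical over 444 coding bases, with 32 mismatches, and 63.2% identical after the stop codon. Identity of the *HBA1* coding sequence with the other alpha-like genes was 73.8% for *HBQ1*, 70.3% for *HBZ* and 67.0% for *HBM*. That of *HBB* with *HBE1* was 79.1%. Only *HBA1* and *HBA2* were near-identical in the coding part, and their separate levels are uncertain to that extent.

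RefSeq promoter windows were at hand for 2 of the 8 genes, *HBM* and *HBD*, which are shown because each lies beside a far more abundant gene of its cluster (*HBA2* and *HBB*). Each run holds the 250 bases before the RefSeq start (GRCh38.p14), 5′ to 3′ on the strand of the gene, at chr16:165728-165977 on the forward strand for *HBM* and at chr11:5234484-5234733 on the reverse strand for *HBD*. Capitals mark matches to the searched motifs.
HBM: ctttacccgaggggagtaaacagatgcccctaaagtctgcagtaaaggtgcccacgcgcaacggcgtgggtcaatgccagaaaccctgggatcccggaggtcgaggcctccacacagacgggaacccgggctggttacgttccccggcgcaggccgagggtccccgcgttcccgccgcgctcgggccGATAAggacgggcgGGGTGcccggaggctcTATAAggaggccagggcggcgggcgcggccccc
HBD: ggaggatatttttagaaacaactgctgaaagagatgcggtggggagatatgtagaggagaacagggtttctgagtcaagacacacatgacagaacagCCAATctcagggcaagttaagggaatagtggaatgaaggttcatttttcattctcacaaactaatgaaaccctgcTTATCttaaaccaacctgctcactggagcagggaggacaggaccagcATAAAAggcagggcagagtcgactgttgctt
The motifs searched were GATAA (the core of sites for GATA factors), CACCC (the kind of box that KLF1 binds) and CCAAT on both strands, and TATAA and ATAAAA on the strand of the gene. In *HBM*, GATAA began 63 bases before the start, CACCC on the opposite strand (read here as GGGTG) 49 bases before it and TATAA 33 bases before it. In *HBD*, CCAAT began 153 bases before the start, GATAA on the opposite strand (read as TTATC) 78 bases before it and ATAAAA 31 bases before it. Of 35116 promoter windows of this length, 20.4% held GATAA, 54.7% CACCC, 32.0% CCAAT, 13.6% TATAA and 8.76% ATAAAA. No match is thus particular to these genes, and the shares count a match anywhere in the 250 bases, without regard to its position. The *HBM* window was rich in G and C (69.2%, with 27 CG pairs) and the *HBD* window was not (45.2%, with 2 CG pairs). Over all windows the median was 58.0% with 11 CG pairs.

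The adult alpha genes and *HBB* were the 3 highest genes of the whole table in each of the 3 libraries labelled hPRM1. *HBA2* was at 1223530, 1146420 and 1295700 RPKM in these libraries, at 0, 0 and 18.0 RPKM with empty vector and at 0, 0 and 2.36 RPKM with hPRM2. *HBB*, the adult beta chain, was at 892449, 798019 and 765727 RPKM in the libraries labelled hPRM1 and was listed at 0 in the other 6. *HBA1* was at 149742, 115466 and 173073 RPKM, against 3.09, 5.72 and 0 RPKM with empty vector and 0, 0 and 4.90 RPKM with hPRM2. For these 3 genes every library labelled hPRM1 was far above every other library.

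The means of the libraries labelled hPRM1 were 1221880 ± 74654 RPKM for *HBA2*, 818732 ± 65851 RPKM for *HBB* and 146093 ± 28976 RPKM for *HBA1* (SD, n = 3). The coefficient of variation over the 3 libraries was 6.11% for *HBA2*, 8.04% for *HBB* and 19.8% for *HBA1*. It was 18.2% for the far lower *HBM*, so that the spread did not follow abundance throughout. On the scale of log2(RPKM + 1), the difference from empty vector was 18.80 for *HBA2*, 19.64 for *HBB* and 15.54 for *HBA1*. As *HBB* was at 0 with empty vector, no fold is given for it. The few reads of *HBA2* with empty vector came from 1 library, replicate 3, where 18.0 RPKM stands for about 29.8 to 75.7 reads, depending on the transcript length.

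*HBM*, the alpha-like gene upstream of *HBA2*, was at 1041, 855 and 725 RPKM in the libraries labelled hPRM1, a mean of 874 ± 159 RPKM (SD, n = 3). It was listed at 0 in the other 6 libraries, where 3 reads would have given at most 1.08 to 1.47 RPKM with empty vector and 4.40 to 9.19 RPKM with hPRM2. *HBM* thus ranked 51, 72 and 74 among all genes in these libraries, below *HBA1* by a factor of 135 to 239. In reads, 1041 RPKM in replicate 1 stands for about 1568 to 2093, so that its level does not rest on a few reads.

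*HBQ1*, which codes for the theta chain, was the only globin gene above 0 in all 9 libraries. It was at 26.5, 9.81 and 6.81 RPKM with empty vector, at 48.9, 54.0 and 35.5 RPKM in the libraries labelled hPRM1 and at 22.4, 5.49 and 6.52 RPKM with hPRM2. These values stand for 60.2, 24.1 and 21.0 reads, for 82.2, 65.2 and 53.1 reads and for 17.0, 2.0 and 3.0 reads. All 3 libraries labelled hPRM1 were above all empty vector libraries, while the hPRM2 and empty vector libraries overlapped. The log2 difference of the libraries labelled hPRM1 from empty vector was 1.81, and 4.17 after median-of-ratios rescaling, which sets each library to the same median ratio over 7274 genes.

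The embryonic genes and *HBD* were low or at 0. *HBZ* was at 1.01, 5.64 and 1.52 RPKM in the libraries labelled hPRM1 (3.0, 12.0 and 4.0 reads), at 0, 0 and 3.67 RPKM with empty vector (20.0 reads in replicate 3) and at 0 in all hPRM2 libraries. The groups labelled hPRM1 and empty vector overlapped for *HBZ* as deposited. After median-of-ratios rescaling they did not, with 2.96, 13.3 and 4.30 against 0, 0 and 1.79. *HBD* was at 0, 0 and 0.786 RPKM in the libraries labelled hPRM1, about 0.2 to 2.3 reads, and was listed at 0 in the other 6. *HBE1*, the embryonic beta-like gene, was listed at 0 in all 9 libraries, where 3 reads would have given at most 0.759 to 6.44 RPKM.

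Of the 8 genes, 5 (*HBA2*, *HBB*, *HBA1*, *HBM* and *HBQ1*) were higher in every library labelled hPRM1 than in every empty vector library. Of the 22088 genes above 0 in any of these 6 libraries, 11.9% were. After median-of-ratios rescaling *HBZ* joined them, 6 in all, beside 28.3% of these genes. The members were chosen on this contrast, so nothing is read from the comparison of these shares. Leaving *HBD* and *HBE1* aside, the order of the levels in the libraries labelled hPRM1 was the same in each library, from *HBA2* over *HBB*, *HBA1*, *HBM* and *HBQ1* to *HBZ*. No neighbours among these 6 overlapped in RPKM, and the nearest were *HBA2* and *HBB*, whose means differed by a factor of 1.49. RPKM divides by gene length, so the order of this pair depends on the lengths used. In replicate 1 labelled hPRM1 their estimated reads overlapped, at 1104164 to 2803430 for *HBA2* and 366083 to 2641024 for *HBB*. *HBD* and *HBE1*, at the low end, overlapped. The step from *HBA1* to *HBM* was the largest, a factor of 167 between the means.

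The globin genes together made up 86.6%, 83.2% and 86.3% of the summed RPKM of the libraries labelled hPRM1. *HBA2* alone was 46.8%, 46.3% and 50.0%, *HBB* 34.1%, 32.2% and 29.6%, and *HBA1* 5.72%, 4.66% and 6.68%. With empty vector the 8 genes made up at most 0.00101% of the sum, and with hPRM2 at most 0.00059%. The sum over all genes was itself 2609310 to 3156230 RPKM with empty vector and 3798070 to 21091900 RPKM with hPRM2. The shares of these 2 groups are thus not of like totals. The shares are of summed RPKM, which is not a share of reads, since a short gene has a higher RPKM for the same reads. In bulk samples such as these, fewer cells of a type and less RNA per cell cannot be told apart.

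Within the libraries labelled hPRM1, the levels of alpha-like over beta-like genes were in a ratio of 1.54, 1.58 and 1.92, a mean of 1.68 ± 0.208 (SD, n = 3). *HBA2* exceeded *HBA1* by a factor of 8.17, 9.93 and 7.49, and *HBB* by a factor of 1.37, 1.44 and 1.69. All these ratios are of RPKM and change with the gene lengths by which the reads were divided. *HBA2* was thus the higher gene of the alpha pair in all 3 libraries, with the limit that their coding sequences are identical. Replicate 3 had the highest *HBA2* and *HBA1* and the lowest *HBB*, and replicate 2 the lowest *HBA2* and *HBA1*.

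**Figure D1:**
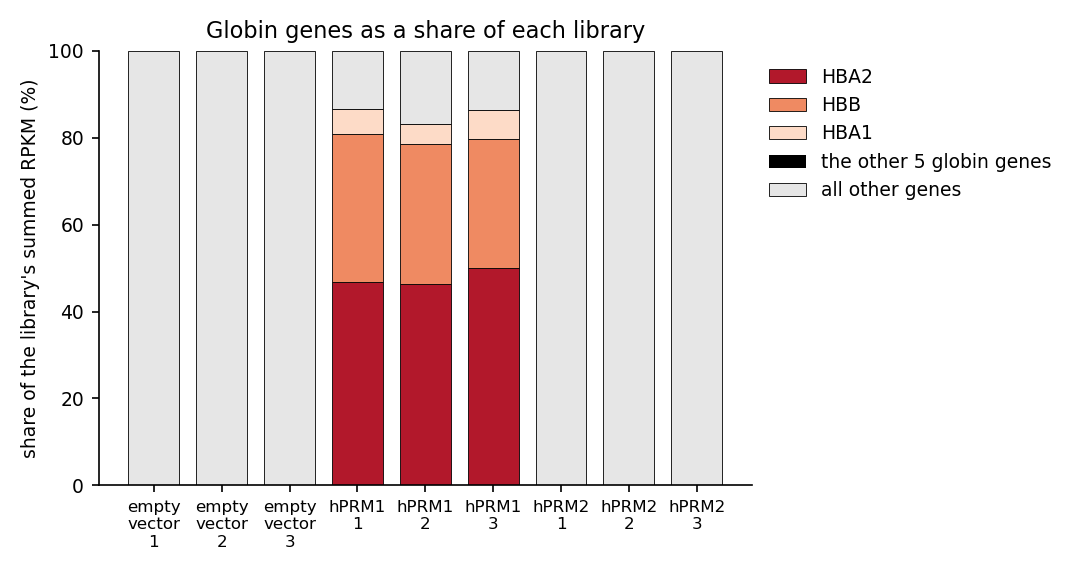
Share of each library's summed RPKM (percent) taken by *HBA2*, *HBB*, *HBA1*, the other 5 globin genes and all other genes, 1 bar per library. The globin genes take 83.2% to 86.6% in the 3 libraries labelled hPRM1 and cannot be seen in the other 6, where they take 0.00101% or less.

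The genes along the alpha cluster differed widely in level. In the libraries labelled hPRM1, mean levels were 2.72 RPKM for *HBZ*, 874 RPKM for *HBM*, whose annotated span begins 1.2 kb and whose RefSeq start lies 13.3 kb from the start of *HBZ*, 1221880 RPKM for *HBA2* at 20.2 kb, 146093 RPKM for *HBA1* at 24.0 kb and 46.1 RPKM for *HBQ1* at 27.8 kb. The flanking genes, named after their values were seen, had ordinary levels. *NPRL3*, whose introns hold the main enhancers of the cluster and which codes for a regulator of mTORC1 signalling, had a mean of 10.7 RPKM with empty vector, 10.6 RPKM in the libraries labelled hPRM1 and 8.48 RPKM with hPRM2. *LUC7L*, a gene for a splicing factor at 36.3 kb, had means of 32.9, 12.5 and 19.9 RPKM. The limma log2 difference of the libraries labelled hPRM1 from empty vector (n = 3) was -0.08 for *NPRL3* and -1.30 for *LUC7L*. Since both genes were named with their values known, these differences and their calls are a description, given without a p. *LUC7L* was called lower, as were 62.5% of all genes tested, whose median was -1.72. After median-of-ratios rescaling both flanking genes were called higher, by 2.21 and 1.09, beside 35.5% of all genes tested and a median of 0.34.

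**Figure D2:**
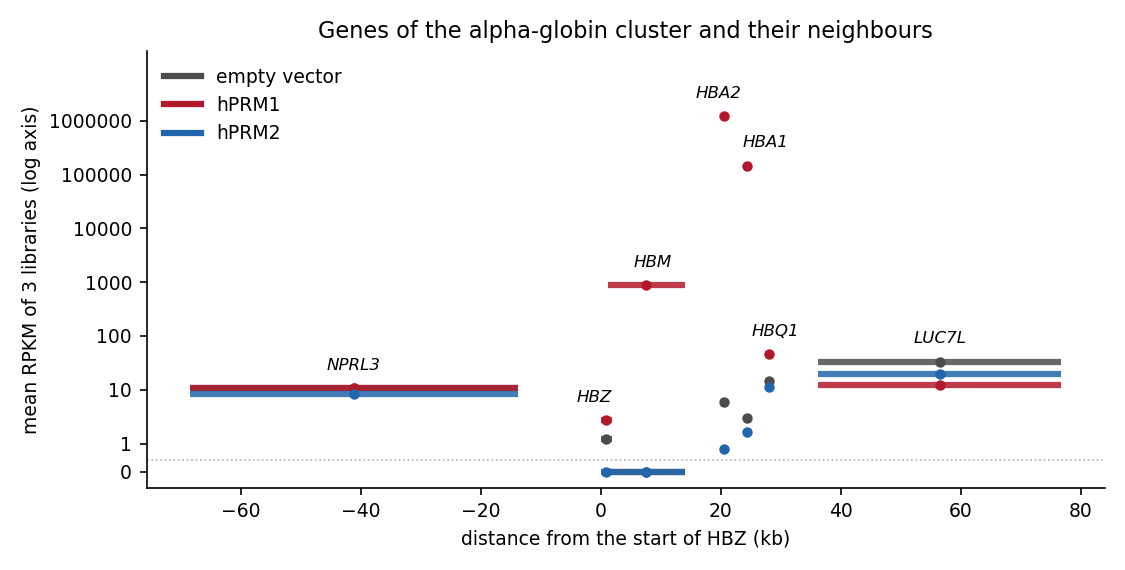
Mean RPKM of 3 libraries per group (log axis, with 0 drawn below the dotted line) for the genes of the alpha cluster and the protein-coding genes within 50 kb, against the distance from the start of *HBZ* in kb, with bars spanning each gene. *HBA2* and *HBA1* stand at 1221880 and 146093 RPKM in the libraries labelled hPRM1, while *NPRL3* on one side is at 8.48 to 10.7 RPKM in all 3 groups (its empty vector bar is covered by that of hPRM1) and *LUC7L* on the other at 12.5 to 32.9 RPKM.

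The genes were chosen on the contrast of the libraries labelled hPRM1 with empty vector. The comparison of hPRM2 with empty vector shares the empty vector libraries, so it is not independent of that choice. The 2 globin genes that could be tested in it were not called. The 8 genes summed to 22.4, 5.49 and 13.8 RPKM with hPRM2 and to 29.5, 15.5 and 28.5 RPKM with empty vector. The 2 groups overlapped, and the difference of the means, -10.6 RPKM, had p = 0.2 in a two-sided exact permutation test, whose smallest p with 3 libraries against 3 is 0.1. Only *HBQ1* and *HBA1* had at least 1 RPKM in at least 3 of the 6 libraries and were tested with limma. The log2 difference of hPRM2 from empty vector was -0.34 (SE 0.75, adjusted p = 0.788) for *HBQ1* and -0.74 (SE 0.97, adjusted p = 0.637) for *HBA1*. Neither was called by limma, which called 2.74% of the 13126 genes tested, a share that rests on single libraries: the 359 calls became 12 to 2429 when 1 library was left out. Neither had an unadjusted p under 0.05, which 25.5% of the genes had by limma and 19.2% in a per-gene two-sample test. This test, run here after the kind used in the study, called 9 genes (0.0686%). The study itself reported no significant differential expression with hPRM2. The sign for *HBQ1* turned without empty vector replicate 1 (0.19) and without hPRM2 replicate 2 (0.0037).

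*HBB*, *HBD*, *HBM* and *HBE1* were at 0 in all 6 libraries of this comparison. Of the other 4 genes, 0 separated the hPRM2 libraries from those with empty vector, and 25.6% of the 20888 genes above 0 in any of these libraries did so in either direction, so that nothing is read from a count over 4 genes. *HBA2* and *HBZ* were above 0 in empty vector replicate 3, and *HBA2* in hPRM2 replicate 3 with about 0.6 to 1.5 reads. At these depths 3 reads correspond to 1.69 to 42.2 RPKM with hPRM2, depending on the gene and the library, so that a value of 0 there allows levels up to these.

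The enzymes of haem synthesis, which make the iron-binding group of haemoglobin, were mostly lower in the libraries labelled hPRM1 on the scale as deposited. *ALAS2*, the red cell form of the rate-limiting enzyme, was at 205, 68.5 and 297 RPKM there and at 0 in the other 6 libraries. Of 8 genes, all tested with limma, 1 was called higher (*ALAS2*, log2 difference 7.34) and 5 lower (*ALAS1*, *ALAD*, *UROS*, *UROD* and *CPOX*), while *PPOX* and *FECH* were not called. Of all 13588 genes tested, 12.9% were called higher and 62.5% lower, so that 5 of 8 is near the background. *ALAS2* passed the filter on low values only through the libraries in which it is high, so its difference is a description and no p is given, and in the per-gene test it was not called. The median log2 difference was -1.75 over the list and -1.72 over all genes tested.

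The calls of this list changed after median-of-ratios rescaling for every gene but *ALAS2* and *PPOX*. *ALAS1*, the form of other tissues, was at 23.0, 23.4 and 15.3 RPKM with empty vector and at 4.78, 2.18 and 3.51 RPKM in the libraries labelled hPRM1, without overlap. *FECH*, the enzyme that inserts iron, was at 10.4, 7.04 and 7.95 RPKM and at 9.22, 10.6 and 14.5 RPKM, with overlap. After median-of-ratios rescaling, which moved the median of all genes from -1.72 to 0.34, *ALAS2* and *FECH* (2.66) were called higher and 0 of the 8 lower (0 also at an unadjusted limma p under 0.05), against 35.5% of 13633 genes called higher and 23.6% lower. The share of lower calls among all calls was 82.9% as deposited, 39.9% after this rescaling and 57.6% after quantile normalization.

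*AHSP*, the chaperone that binds free alpha chains, was at 208, 135 and 228 RPKM in the libraries labelled hPRM1 and was listed at 0 in the other 6. Its log2 difference from empty vector was 7.55 (SE 0.25), given without a p for the same reason as for *ALAS2*, and the per-gene test did not call it. *AHSP* and *ALAS2* were both lowest in replicate 2, the library with the lowest *HBA1* and *HBA2*. In contrast, *HBB*, *HBM* and *GATA1* were lowest in replicate 3, and *TAL1* and *NFE2* were highest in replicate 2, so no shared order is read from this.

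Of 10 transcription factors of red cell development, 8 could be tested, of which 5 were called higher in the libraries labelled hPRM1 and 1 lower. *NFE2*, which binds the distant globin enhancers, was at 62.3, 74.2 and 63.3 RPKM there and at 0, 0.0831 and 0 RPKM with empty vector. *TAL1* was at 45.0, 72.6 and 29.4 RPKM against 0.115, 0.506 and 1.29 RPKM. *KLF1*, an activator of *HBB*, was at 4.51, 6.28 and 6.89 RPKM and *GATA1* at 6.25, 5.19 and 3.64 RPKM, and both were listed at 0 in the other 6 libraries. The 5 factors called higher were thus at 3.43 to 74.2 RPKM, under *HBM* and the adult globin genes in every library labelled hPRM1.

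The log2 differences of the 5 genes called higher were 6.04 for *NFE2*, 4.90 for *TAL1*, 2.77 for *KLF1*, 2.59 for *GFI1B* and 2.57 for *GATA1*. *NFE2*, *KLF1*, *GFI1B* and *GATA1* were under 1 RPKM in every empty vector library, and *TAL1* reached 1 RPKM there only in replicate 3 (1.29 RPKM). All 5 passed the filter only through the libraries labelled hPRM1, so the count of 5 is a description and supports nothing. In the per-gene test 2 of the 5, *NFE2* and *KLF1*, were called. *GATA2*, the factor of earlier progenitors, fell by 2.11 (adjusted p = 0.000196), from 11.9, 10.5 and 10.5 RPKM to 1.15, 2.29 and 2.03 RPKM. *LMO2* (1.27) and *LDB1* (-0.28), which form a complex with TAL1 and GATA1, were not called. After median-of-ratios rescaling *LMO2* and *LDB1* were called higher as well, 7 in all beside 35.5% of all genes tested, and *GATA2* was not called. As deposited, the 5 of 8 called higher stood beside 12.9% of all genes tested and the 1 called lower beside 62.5%. *ZFPM1* and *MYB* were too low to be tested.

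**Figure D3:**
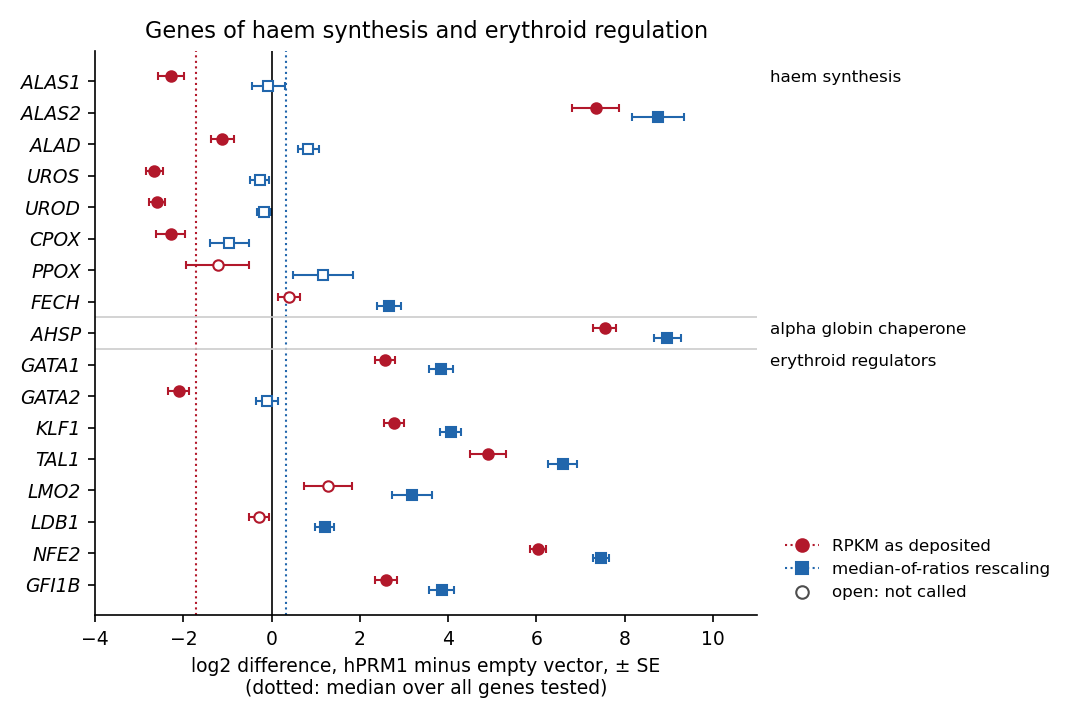
Log2 difference of the libraries labelled hPRM1 from empty vector, with its SE, for the genes of haem synthesis, *AHSP* and the erythroid regulators, as deposited (circles) and after median-of-ratios rescaling (squares), filled where called by limma. Dotted lines are the medians over all genes tested, -1.72 and 0.34, and *ALAS2* (7.34), *AHSP* (7.55) and *NFE2* (6.04) lie far to the right of both lines.

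Among 17 further genes of red cells, 15 were tested, of which 10 were called higher and 2 lower in the libraries labelled hPRM1, beside 12.9% and 62.5% of all genes tested. In the per-gene two-sample test 4 were called higher and 2 lower, beside 5.82% and 27.4%. Of the 10, *CA1* and *HEMGN* were under 1 RPKM in every empty vector library, and *SLC4A1*, *TRIM58* and *DMTN* in at least 1 of them. All of these could be tested only because they are high in the libraries labelled hPRM1, so the count of 10 is a description. *SLC25A37*, the mitochondrial iron importer known as mitoferrin, was at 2663, 2556 and 2039 RPKM there and at 17.3, 13.0 and 25.2 RPKM with empty vector. *SLC4A1*, the anion exchanger of the red cell membrane, was at 263, 131 and 230 RPKM against 0, 1.19 and 0.245 RPKM. *CA2*, a carbonic anhydrase, was among the genes called lower, at 1.16, 1.13 and 0.522 RPKM against 193, 171 and 157 RPKM, and stayed lower after median-of-ratios rescaling (-4.60). *BPGM*, which makes the regulator of oxygen binding 2,3-bisphosphoglycerate, was called lower as deposited (-2.32) and not after rescaling (-0.06). After rescaling 13 were called higher and 1 lower, beside 35.5% and 23.6% of all genes tested. With hPRM2, the genes tested were 7 of the haem list, 3 of the regulators and 11 of this list. Of these, 0 were called by limma or by the per-gene two-sample test. An unadjusted limma p under 0.05 was found for 1, 1 and 3 of them, beside 25.5% of all genes tested.

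The other members of the globin family did not follow *HBA2* and *HBB*. *MB* (myoglobin) and *NGB* (neuroglobin) were listed at 0 in all 9 libraries, *CYGB* (cytoglobin) was at 0.529, 1.53 and 1.65 RPKM with empty vector and at 0.358, 0 and 0 RPKM in the libraries labelled hPRM1, and *ADGB* was above 0 only in empty vector replicate 1, at 0.447 RPKM. Of the globin pseudogenes *HBAP1*, *HBZP1* and *HBBP1*, only *HBZP1* was above 0, in replicate 1 labelled hPRM1, at 3.81 RPKM. None of these 7 genes was high enough to be tested.

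Markers of blood cells were also high in the libraries labelled hPRM1. The summed level of 9 erythroid markers was 881 to 1418 RPKM there, 39.2 to 55.3 RPKM with empty vector and 2.16 to 36.8 RPKM with hPRM2, and 8 of the 9 were above all empty vector libraries, as were 11.9% of the 22088 genes above 0 in any of these 6 libraries. The sum of 10 neutrophil and monocyte markers was 6394 to 7427 RPKM against 0.284 to 3.02 RPKM and 2.29 to 19.3 RPKM, with 10 of 10 above. Of the erythroid list, *EPB42* was at 3.26, 0 and 0 RPKM in the libraries labelled hPRM1. With empty vector the erythroid sum was *GYPC* almost alone, at 39.2, 38.3 and 55.0 RPKM, and with hPRM2 it was *GYPC* and *SLC4A1*. Of the 9 erythroid markers, 6 were at 0 in all 3 empty vector libraries and 7 in all 3 hPRM2 libraries. The part of other cells in the globin levels was not tested.

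The sum of 10 lymphocyte markers was 542 to 611 RPKM in the libraries labelled hPRM1 (10 of 10 above all empty vector libraries), 0.739 to 4.71 RPKM with empty vector and 35.4 to 70.6 RPKM with hPRM2. With hPRM2 this sum was *LCK* almost alone, at 70.6, 45.3 and 33.3 RPKM, and 8 of the 10 markers were at 0 in all 3 libraries. That of 8 platelet markers was 343 to 609 RPKM (7 of 8 above), 16.9 to 32.1 RPKM and 8.85 to 14.0 RPKM. That of 6 hepatocyte markers was 38.5 to 44.2 RPKM (1 of 6 above), 0 to 1.81 RPKM and 0 to 5.80 RPKM. *ALB*, *APOC3*, *TTR* and *FGB* were at 0 in the libraries labelled hPRM1, where *SERPINA1* carried the sum at 38.0, 44.0 and 44.2 RPKM. Beside these counts, 11.9% of the 22088 genes above 0 in any library of the 2 groups had every library labelled hPRM1 above all empty vector libraries. Of the blood cell lists, that of neutrophils and monocytes had the highest sum, but the globin genes exceeded it by a wide margin, at 2060820 to 2266810 RPKM.

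**Figure D4:**
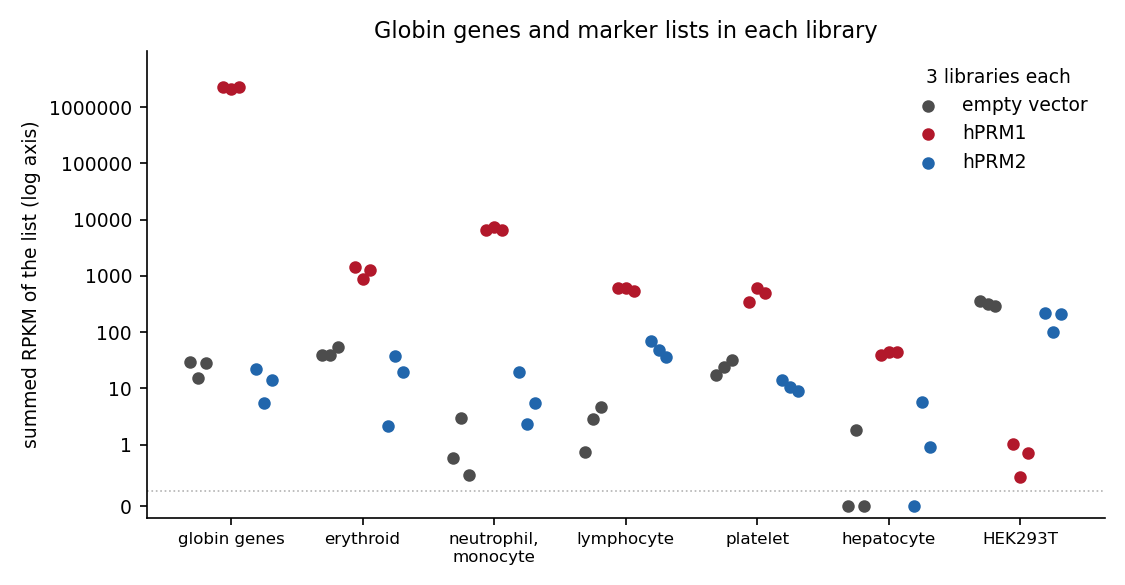
Summed RPKM (log axis, with 0 drawn below the dotted line) of the 8 globin genes and of 6 marker lists in each library, 1 point per library. In the libraries labelled hPRM1 the neutrophil and monocyte list is at 6394 to 7427 RPKM and the HEK293T list at 0.260 to 1.03 RPKM, against 0.284 to 3.02 RPKM and 295 to 355 RPKM with empty vector.

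The genes whose pattern over the 9 libraries was most like the summed globin level were sought among 446 genes with a mean of at least 100 RPKM in the libraries labelled hPRM1. Pearson's r of log2(RPKM + 1) was 0.998 for *AIF1*, 0.998 for *S100A9*, 0.997 for *CSF3R*, 0.997 for *VNN2* and 0.997 for *SLC15A3*, with means in these libraries of 129, 1703, 338, 172 and 212 RPKM. These genes were at 0 in all hPRM2 libraries and at most 0.460 RPKM with empty vector. *S100A9* and *CSF3R* are known from neutrophils and monocytes, and *AIF1* from monocytes and macrophages. In all, 47 of the 446 genes had r above 0.99. The coefficients are a description over 9 libraries that fall into separate groups and share their depth and scaling, and they carry no test.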

How the data were processed

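RNA was sequenced in 9 libraries labelled as HEK293T cells, 3 each labelled empty vector, hPRM1 and hPRM2. The authors trimmed, aligned and counted the reads with Cutadapt, STAR and Salmon (versions not given in the sources used here, build hg38 per the labels), left out mitochondrial genes, and deposited RPKM values, reads divided by the library total and the gene length. Since RPKM is relative to all reads of a library, other scalings were run. No counts were used, and 0 sample columns were left unused. Of the gene identifiers, 98.6% had a symbol, and 33786 of 57338 genes were at 0 in every library.

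Reads per library were estimated from the spacing of low RPKM values of genes with 1 transcript in GENCODE 29, with 250 bases subtracted from each length. Of the values under 10 reads, 90.1% to 95.0% came out whole within 0.05 reads, which is not nearly all, so no count test was run. Read numbers of genes with several transcripts are a range over their lengths. A value of 0 was taken to allow 3 reads, which covers counting error only.

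Each protamine group was tested against empty vector with limma 3.58.1 in R 4.3.3 (lmFit, eBayes with trend and robust) on log2(RPKM + 1), which understates the change of low genes, over all genes of at least 1 RPKM in at least 3 of 6 libraries. Genes with a Benjamini-Hochberg adjusted p of 0.05 or less and a change of 2-fold or more were called. For summed levels an exact permutation test (two-sided) was used. No separate cultures are stated, so p-values measure the spread between these libraries, which may be technical. Sequences were aligned with Biopython 1.88. Remaining steps used Python 3.11.15 (SciPy 1.17.1, numpy 2.4.6, pandas 2.3.3), and figures were drawn with matplotlib 3.10.9.

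The globin genes and all lists were chosen with earlier results of these data known. The named genes are the 8 globin genes, the remaining globin family genes, the listed partner genes and the 5 genes most like the summed globin level. Genes with levels known to vary from person to person, and 3 further genes of the lists, are not reported here.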

Additional observations from a re-analysis of the deposited data

How the results depend on the processing

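The count of globin genes above every empty vector library in the libraries labelled hPRM1 was 5, and 5 or 6 (with *HBZ* after median-of-ratios rescaling) under the other scalings, pseudocounts and with a library left out. No globin gene was called with hPRM2 under any alternative. The summed difference of hPRM2 from empty vector stayed negative, from -15.1 to -6.42 RPKM with a library left out and -2.56 after median-of-ratios rescaling (p = 0.5, exact permutation test). The direction of *HBQ1* with hPRM2 turned without being called, at 0.15 after median-of-ratios rescaling and -0.92 to 0.19 with a library left out (above 0 without empty vector replicate 1 and, at 0.0037, without hPRM2 replicate 2). The haem list gave 0 genes called higher and 3 lower in the per-gene two-sample test. With a minimum of 10 RPKM, where fewer genes were tested, 3 were called lower. It gave 2 higher and 0 lower after median-of-ratios rescaling, and 2 higher and 2 lower after quantile normalization. *ALAD* turned to 0.83 and 0.45, *PPOX* to 1.16 and 0.48 and *LDB1* to 1.21 and 0.77 under these 2 scalings. The regulators gave 2 called higher with that minimum, 2 in the per-gene test, and 0 lower under both scalings. The cause was not tested for the other changes.

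With a replicate block the call counts of the globin genes, haem list and regulators were the same, with *HBQ1* at -0.34 (limma adjusted p = 0.775) for hPRM2, while the calls over all genes went from 359 to 57 for hPRM2 and from 10241 to 10334 for hPRM1. Whether same-numbered libraries share more than a number is not stated. The correlations of their deviations, -0.081 to 0.093, were all under 0.1, which cannot decide this. Depth limits low globin genes most with hPRM2, where 2.0 or 3.0 reads carried *HBQ1* in 2 libraries.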
